A study of Mus musculus with 2 samples.

Results

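Forkhead transcription factors of serum-stimulated mouse embryonic fibroblasts (MEF) were followed in the presence and absence of THOC5. The 9 genes taken by name were Foxc1, Foxc2, Foxd1, Foxf2, Foxk1, Foxp1, Foxo1, Foxo3 and Foxo4. They were represented by 13 probes, which were all probes carrying one of these names, out of 31791 gene names on the array. A further 35 forkhead genes were on the array and were used only for comparison.

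THOC5 is a subunit of the THO complex, which takes part in the processing and export of mRNA. The MEF line was immortalized and came from mice of the strain C57BL/6 x B6:129 Ola with the genotype Rosa26ERT2 Cre: THOC5 (flox/flox), so control and THOC5-depleted cells alike carried the floxed alleles and the tamoxifen-activated Cre recombinase, which is expressed from the ubiquitous Rosa26 locus. The control culture was labelled wildtype and received no tamoxifen, whereas the THOC5-depleted culture was labelled THOC5 knockdown and had 2 days of tamoxifen. The paper's cell culture methods describe a shorter exposure to tamoxifen followed by growth medium. Its chromatin precipitation methods and several figure legends give 2 days, as the labels do, and the labels were followed here. After serum starvation, each culture was sampled unstimulated and after 1 h of fetal calf serum, which the methods give as 20% serum. Cells of a single line were used and the control culture had no tamoxifen, so loss of THOC5, tamoxifen itself, Cre activity and the difference between the cultures cannot be told apart.

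Each culture was measured on 1 dual-color array, with unstimulated RNA in Cy3 and serum-stimulated RNA in Cy5 on both. With 1 array per condition and no exchange of dyes there was no replicate check, and no p-value is given. Errors after ± are the scanner software's own estimate for a spot and hold no biological spread. Thoc5 itself had signals of 4808 and 3047 in control cells (unstimulated and serum) and of 546 and 455 in THOC5-depleted cells, that is, 7.08-fold and 5.38-fold lower after normalization between the arrays. Between 62.1% and 64.4% of the 43020 spots were well above background in each channel and 0 were saturated. All 8 fibroblast markers examined were well above background in the 4 channels (summed signals from 265369 to 363862), whereas Cdh1, which defines epithelium, and Tek of endothelium were above it in none. Of the markers of other cell types, 2 of 4 for epithelium, 2 of 3 for endothelium, 1 of 3 for blood and 1 of 2 for pluripotent cells were above background in every channel. The summed signals ran from 94.5 to 187 for epithelium, 81.5 to 121 for endothelium, 417 to 605 for blood and 131 to 152 for pluripotent cells.

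Forkhead proteins bind DNA through a conserved winged-helix domain and act as transcription factors in development, metabolism and the cell cycle. FoxC and FoxF proteins pattern mesenchymal tissues, FoxK and FoxP proteins act largely as repressors, and FoxO proteins turn on genes of cell cycle arrest, stress resistance and autophagy. Growth factors in serum act on FoxO proteins through phosphatidylinositol 3-kinase and the kinases AKT and SGK, whose phosphorylation of FoxO keeps it out of the nucleus. That control works on the protein and is not seen by an array, which measures mRNA.

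The probes of the members that were detected, other than the Foxp1 probes at bases 28 and 1799, are shown by their opening 30 of 60 bases. They are shown because each value below is the hybridization to one such oligonucleotide and does not cover the rest of the transcript. All are written 5′ to 3′ as on the array, and the number after a name is the base of the transcript at which the array's design places the probe.
Foxc1 3908: cttaagcagtaattgctgttgcttgttgtc
Foxc2 2622: cacaccaaaagactttaaaatttcaatctc
Foxf2 2229: ttttatgatcttcgtatactcacacttcgc
Foxo1 2308: ttcggaatgacctcatggatggagatacct
Foxo1 4809: ttctgggagaatgttcgctttctggtctat
Foxk1 7021: taacacttagtgctttaaaagcagtggtac
Foxp1 2058: ccagattttgaccatgacagagattacgaa
On mm9, the build of the array files, these 60-base probes lay at chr13:31902423-31902482 (Foxc1, plus strand), chr8:123642693-123642752 (Foxc2, plus strand), chr13:31723139-31723198 (Foxf2, plus strand), chr3:52150183-52150242 and chr3:52153289-52153348 (Foxo1, plus strand), chr5:142937545-142937604 (Foxk1, plus strand) and chr6:98880084-98880143 (Foxp1, minus strand). They were designed on transcripts and so lie in exons. Whether a probe sits before or after a cleavage site used in these cells was not examined here.

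In the presence of THOC5, serum raised the Foxc2 signal 6.60-fold and those of Foxf2 and Foxo1 about as much as each other, by 1.64-fold and 1.60-fold, while Foxc1 was 1.57-fold lower. In the absence of THOC5, and before any scaling of the depleted array's ratios, Foxc2 reached 1.495-fold, just under the limit used here, Foxf2 at 1.40-fold, and Foxo1 was 1.10-fold lower after serum than before. Foxd1, Foxo3 and Foxo4 gave no signal well above background in any of the 4 channels, so 6 of the 9 genes were measured and all counts below are over those 6. A gene was counted as higher or lower when it was past 1.5-fold with the signals compared well above background. Processed signals are not scaled between the arrays, so fold changes between the cultures are taken after normalization. In these bulk RNA samples, less RNA per cell and fewer cells that express a gene cannot be told apart.

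The members and lists were chosen with earlier results of these data known, so counts over them are descriptive and test no enrichment. From these same arrays, the paper had already listed Foxc2 among serum-inducible genes with reduced upregulation on loss of THOC5. In control cells, 3 of the 6 measured genes were higher after serum, where 6.35% of all 19290 genes measured were, and 1 was lower, where 5.51% of all genes were. In THOC5-depleted cells, 0 of the 6 were higher, against 3.07% of 19348 genes, and 0 were lower, against 1.34%. The median log2 serum ratio of the 6 genes was 0.36 in control and 0.02 in THOC5-depleted cells, beside -0.02 and -0.01 over all genes. The depleted array had the narrower log2 ratios as a whole, and multiplying them by 1.40 gave them the spread of the control array. On that scale Foxc2 (log2 0.81) and Foxf2 (log2 0.68) were past 1.5-fold without THOC5, so that 2 of the 6 genes in place of 0 were higher. Such scaling also moves other genes past the limit, and the share of all genes on that scale is not given here. Comparing the cultures with each other, unstimulated THOC5-depleted cells had 1 of the 6 genes, Foxc2, higher than control (4.99% of 19264 genes) and 1, Foxc1, lower (5.19%). After 1 h of serum, 0 of the 6 were higher (6.02% of 18899 genes) and 3, namely Foxc1, Foxc2 and Foxo1, were lower (5.67%). The serum response itself, taken as the log2 ratio of THOC5-depleted minus control cells, was 1.5-fold or more lower for 2 of the 6 genes, Foxc2 and Foxo1 (3.76% of 18625 genes), and higher for 0 (4.08%). These comparisons are built from the same 4 signals of each probe and are not independent of each other. With normexp and loess in place of the processed signals, Foxc1 fell just short of 1.5-fold in control cells (log2 -0.58) and Foxc2 passed it in THOC5-depleted cells (log2 0.60).

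**Figure D1:**
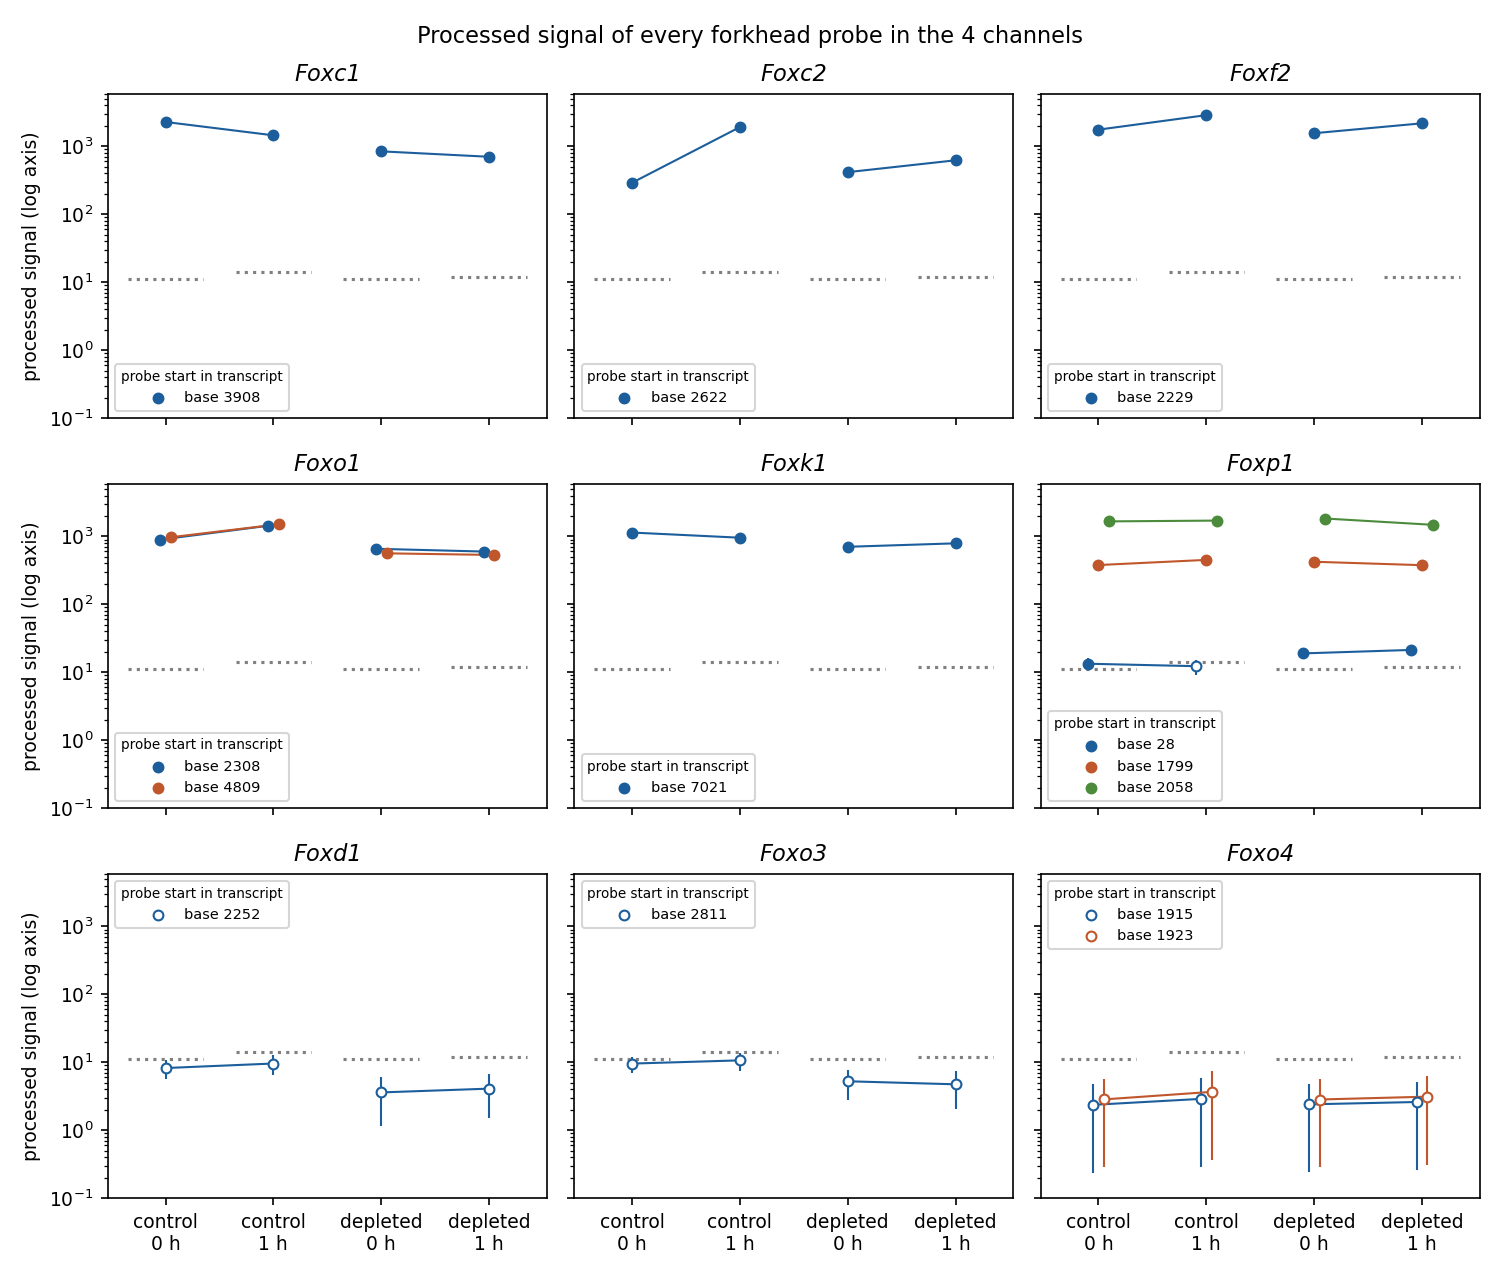
Processed signal (log axis, arbitrary units) of all 13 probes of the 9 forkhead genes in the 4 channels, with 0 h unstimulated, 1 h after serum and lines joining the channels of an array. Filled points were well above background and open points were not, bars are the software's error (shortened where they would reach 0 or less), and dotted lines mark the limit of each channel, the dimmest signal that counted as well above background, from 11.2 to 14.03. Foxc2 went from 291 to 1920.1 in control cells, and Foxd1, Foxo3 and Foxo4 stayed among the open points.

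Foxc2, a transcription factor of lymphatic vessels, heart outflow tract and skeleton and of mesenchymal cells, responded most among the members. Its signal was 291 unstimulated and 1920.1 after serum in control cells, and 417 unstimulated and 624 after serum in THOC5-depleted cells. The log2 serum ratio was thus 2.72 ± 0.32 with THOC5 and 0.58 ± 0.21 without it. The first value ranked 47 from the highest of 19290 genes and the second ranked 610 of 19348. The response without THOC5 minus that with it was -2.14 ± 0.39 on the log2 scale, with rank 19 from the lowest of 18625 genes. The level moved in opposite directions between the cultures before and after serum. Unstimulated THOC5-depleted cells had 1.75-fold more Foxc2 signal than control cells (log2 0.81 ± 0.20), and serum-stimulated ones had 2.53-fold less (log2 -1.34 ± 0.20), which ranked 128 from the lowest of 18899 genes. When the log ratios of the depleted array were scaled to the spread of the control array, the Foxc2 ratio without THOC5 was 0.81, still below the 2.72 with it.

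Foxc1, the paralog of Foxc2 that acts with it in mesoderm and eye development, went the other way. Its signals were 2287 and 1454 in control cells (unstimulated and serum) and 845 and 703 in THOC5-depleted cells. Both values of the depleted culture were below both values of the control culture. The log2 serum ratio was -0.65 ± 0.21 with THOC5 and -0.27 ± 0.21 without it, and the difference of 0.39 ± 0.30 was under 1.5-fold. The gap between the cultures was larger than the serum response. Unstimulated, Foxc1 was 2.22-fold lower in THOC5-depleted cells (log2 -1.15 ± 0.20, rank 172 from the lowest of 19264 genes), and after serum 1.70-fold lower (log2 -0.76 ± 0.20, rank 615 of 18899). The FoxC genes thus shared a lower signal in serum-stimulated THOC5-depleted cells but had opposite differences in unstimulated cells.

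**Figure D2:**
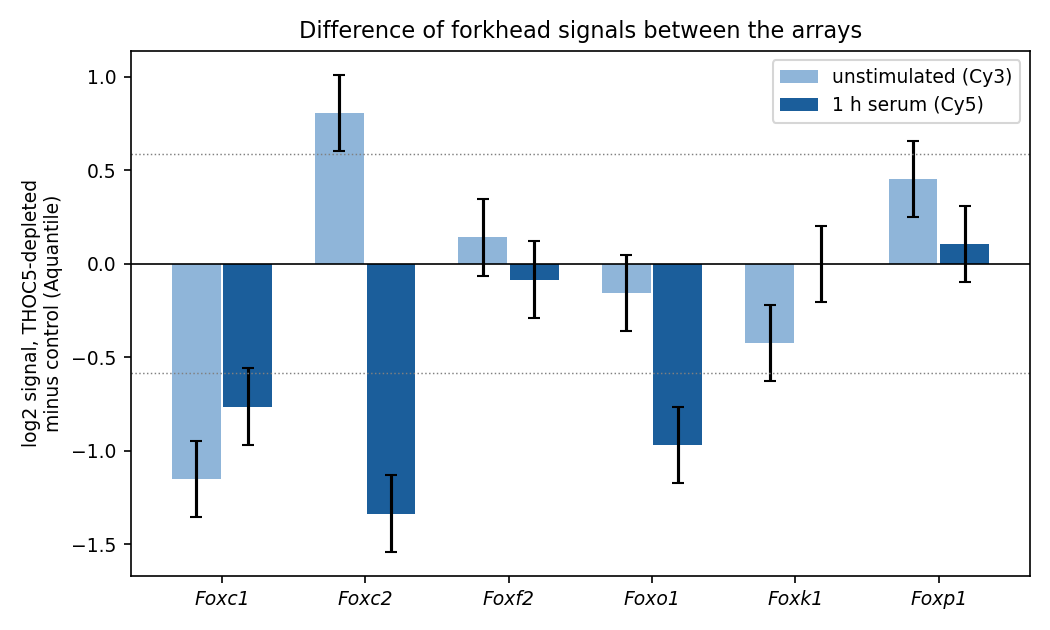
Difference of the log2 signal, THOC5-depleted minus control, of the 6 measured forkhead genes in unstimulated cells (Cy3, light bars) and after 1 h of serum (Cy5, dark bars), after normalization between the arrays. Error bars are the software's spot errors and dotted lines mark 1.5-fold. Foxc1 lay below 0 in both states, Foxc2 at 0.81 and -1.34, and Foxo1 at -0.16 and -0.97.

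Foxf2, a regulator of mesenchyme in gut, palate and brain vessels, had the smallest difference in serum ratio between the cultures among the 6 genes. Its signals were 1762 and 2882 in control cells and 1562 and 2184 in THOC5-depleted cells. The log2 serum ratios were 0.71 ± 0.21 and 0.48 ± 0.21 (0.68 when scaled to the spread of the control array), and their difference of -0.23 ± 0.30 was within the software's error. The cultures differed by 0.14 ± 0.20 unstimulated and by -0.09 ± 0.20 after serum on the log2 scale, both within that error.

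Foxo1, the FoxO factor through which insulin and growth factors restrain genes of gluconeogenesis, cell cycle arrest and autophagy, was past 1.5-fold after serum in control cells and not in THOC5-depleted cells, on both of its probes. The probe at base 2308 read 896 and 1433 in control cells and 657 and 598 in THOC5-depleted cells. A separate probe further downstream, at base 4809, read 972 and 1509 in control cells and 563 and 533 in THOC5-depleted cells. On both probes the serum-stimulated control sample was the highest of the 4 and the serum-stimulated THOC5-depleted sample the lowest. The log2 serum ratios were 0.68 ± 0.21 with and -0.14 ± 0.20 without THOC5 on the upstream probe, and 0.63 ± 0.21 and -0.08 ± 0.20 on the downstream probe. The response without THOC5 minus that with it was -0.81 ± 0.30 and -0.71 ± 0.29 on the log2 scale, with rank 343 from the lowest of 18625 genes for the upstream probe. After serum, Foxo1 was 1.96-fold lower in THOC5-depleted than in control cells at the upstream probe (log2 -0.97 ± 0.20) and 2.33-fold lower at the downstream probe (log2 -1.22 ± 0.20). In unstimulated cells the probes were less alike, with log2 differences of -0.16 ± 0.20 and -0.50 ± 0.20.

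Foxo3 and Foxo4 gave no usable value, whereas Foxo6, a FoxO gene outside the 9, had log2 serum ratios of 0.40 and 0.45 with and without THOC5. Foxo3, which shares many targets with Foxo1, read 9.57 and 10.68 in control cells and 5.26 and 4.74 in THOC5-depleted cells, none of them well above background. Its probe was at chr10:41905610-41905669 on the minus strand. The probes of Foxo4 (chrX:98454966-98455025 and chrX:98454974-98455033) overlapped by 52 bases and are nearly the same measurement, with signals from 2.36 to 3.67. Foxd1, a factor of kidney stroma (chr13:99126452-99126511), read 8.23 and 9.60 in control cells and 3.60 and 4.10 in THOC5-depleted cells. The dimmest signals that counted as well above background were between 11.2 and 14.03 over the 4 channels, so no fold change is given for these 3 genes, and a single probe site that is dark does not show that a gene is silent.

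Foxk1, a repressor that acts on autophagy genes and moves with mTOR signalling, and Foxp1, a transcriptional repressor with roles in lung, heart and lymphocyte development, stayed under 1.5-fold in every comparison on their brightest probes. Foxk1 read 1139.7 and 957 in control cells and 703 and 790.5 in THOC5-depleted cells, with log2 serum ratios of -0.25 ± 0.21 and 0.17 ± 0.20. Between the cultures it differed by -0.42 ± 0.20 unstimulated and by -0.00 ± 0.20 after serum on the log2 scale. The main Foxp1 probe, at base 2058, read 1664 and 1709 in control cells and 1834 and 1481 in THOC5-depleted cells, with log2 serum ratios of 0.04 ± 0.20 and -0.31 ± 0.21. Foxp1 had 3 probes. The probe at base 1799, whose genome interval of 4338 bases (chr6:98885382-98889719) shows that it crosses an exon junction, read 379 and 451 in control and 423 and 377 in THOC5-depleted cells, with log2 ratios of 0.25 ± 0.21 and -0.17 ± 0.20. The probe at base 28 was near background, at 13.4, 12.3, 19.0 and 21.3 in the same order, and the control serum sample was not well above it. Unstimulated, this dim probe was 1.58-fold higher in THOC5-depleted than in control cells (log2 0.66 ± 0.36), where the brighter probes gave 0.45 ± 0.20 and 0.41 ± 0.20. The 2 brighter Foxp1 probes had a positive ratio with THOC5 and a negative ratio without it, and these ratios were under 1.5-fold. The dim probe had the reverse signs, at -0.12 ± 0.46 with THOC5 and 0.17 ± 0.31 without it, both within the software's error.

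**Figure D3:**
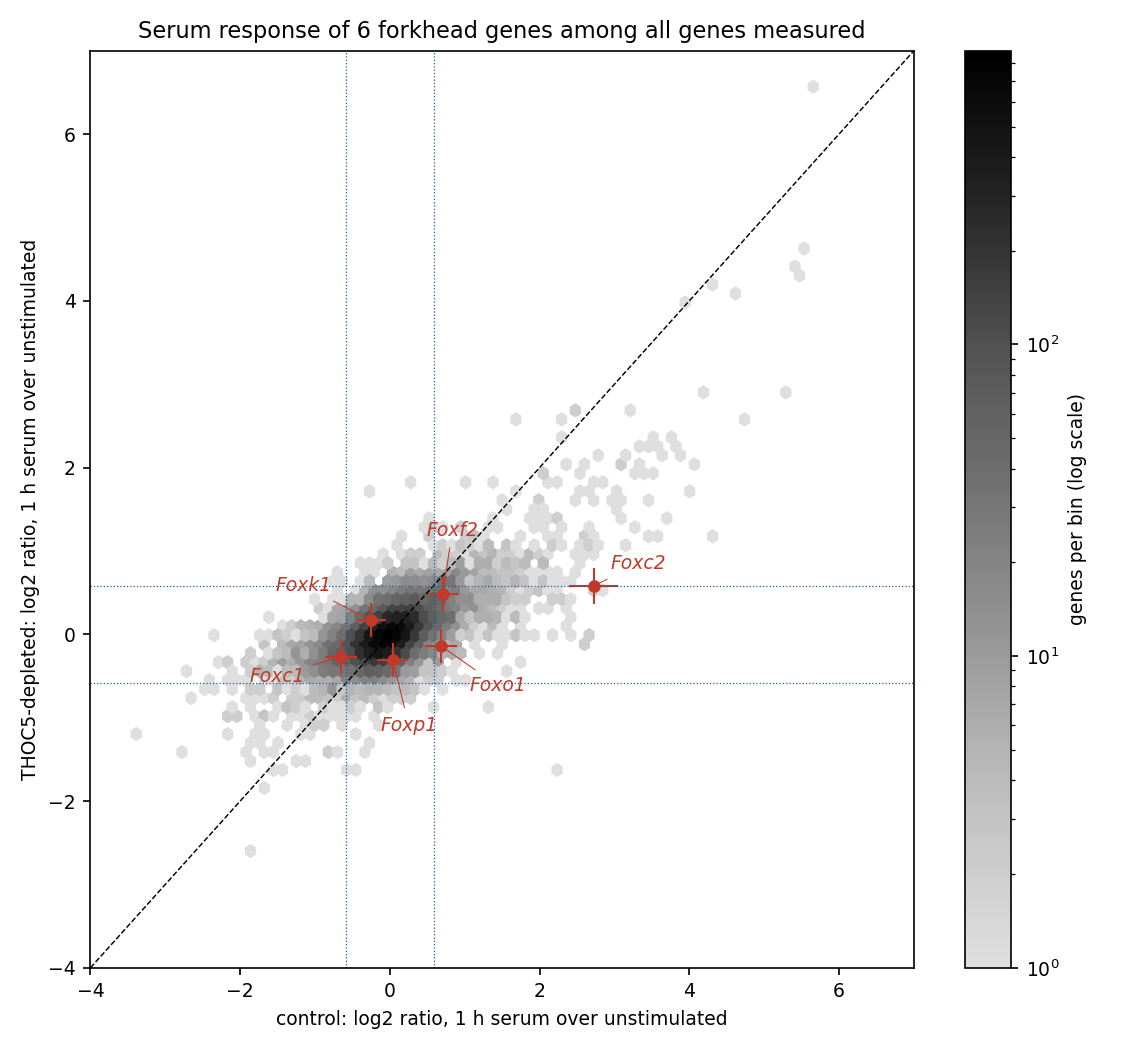
Log2 ratio of 1 h serum over unstimulated signal in control cells (horizontal axis) against THOC5-depleted cells (vertical axis). Grey hexagons count all genes measured on both arrays on a log scale, red points are the 6 measured forkhead genes with the software's error, dotted lines mark 1.5-fold and the dashed line equal responses. Foxc2 at 2.72 and 0.58 lies far below the dashed line and Foxf2 at 0.71 and 0.48 close to it.

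To see whether the members stood alone in their family, the other 35 forkhead genes were examined in the same way. Of the 20 measured in control cells, 5 were higher after serum and 0 lower, with a median log2 ratio of 0.07, beside 6.35% and 5.51% of all genes. Of the 19 measured in THOC5-depleted cells, 2 were higher and 0 lower, with a median of 0.02, beside 3.07% and 1.34% of all genes. With the ratios of the depleted array scaled to the spread of the control array, 5 were higher and 1 lower there, without a share of all genes to set beside them. The 5 genes that were higher in control cells were Foxs1 (log2 1.44), Foxq1 (1.20), Foxl1 (0.88), Foxn2 (0.85) and Foxj1 (0.69), and 4 of the 5 had a smaller ratio without THOC5, although they were picked by their control values. Foxs1, a factor of pericytes and neural crest derivatives, read 300.3 and 817 in control cells and 229 and 295 in THOC5-depleted cells, and its log2 ratio without THOC5 was 0.37. The response without THOC5 minus that with it was -1.08, and its log2 signal after serum differed by -1.21 between THOC5-depleted and control cells, the direction seen for Foxc2 and Foxo1. Foxn2 read 669.7 and 1204 against 552 and 738, with a log2 ratio of 0.42 without THOC5. Foxq1, with 50.7 and 117 against 62.9 and 103, stayed past 1.5-fold without THOC5 at a log2 ratio of 0.71. Foxj1, the regulator of motile cilia, read 32.1 and 52.0 against 41.1 and 70.5 and was the exception, with a log2 ratio of 0.78 without THOC5. Foxl1, with 21.2 and 39.0 against 29.9 and 28.5, is close to the background limit and had a log2 ratio of -0.07 without THOC5. Over the 19 other forkhead genes measured on both arrays, the median difference of the serum response was -0.16, beside -0.29 for the 6 members and 0.01 over all genes, and 2 of the 19 (Foxs1 and Foxl1) were lower by 1.5-fold or more and 0 higher, where 3.76% and 4.08% of all genes were.

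**Figure D4:**
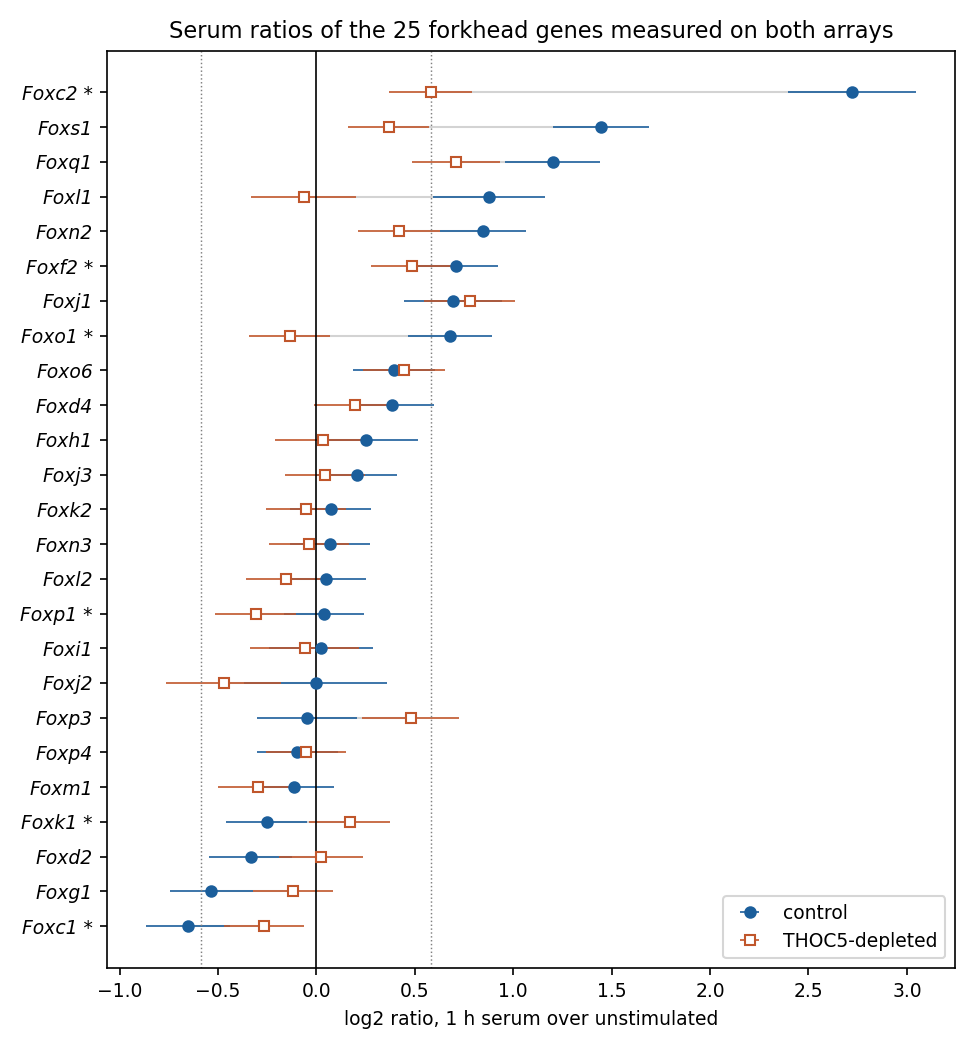
Log2 ratio of 1 h serum over unstimulated signal of the 25 forkhead genes measured on both arrays, ordered by the ratio in control cells (filled circles), with the ratio in THOC5-depleted cells as open squares and the software's error as bars. Asterisks mark the 6 measured members, dotted lines mark 1.5-fold. The depleted value lies to the left of the control value for Foxc2, Foxs1, Foxq1, Foxl1, Foxn2, Foxf2 and Foxo1 at the top, and to its right for Foxj1.

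Several forkhead genes sit in clusters, and Foxc2 and Foxc1 each have forkhead neighbours on mm9. The neighbours were looked up after the values of the members were known. The Foxl1 probe was 11.7 kb from that of Foxc2 and the Foxf1a probe 32.0 kb from it. Foxl1 had log2 serum ratios of 0.88 and -0.07, with and without THOC5, and Foxf1a was not well above background. Mthfsd, a gene between them that is not a forkhead gene, had probes with ratios of -0.62 and -0.46 in one case and of 0.27 and 0.12 in the other. A transcript without a gene name, 30.7 kb from Foxc2, read 43.3 and 67.1 in control cells and 36.6 and 36.9 in THOC5-depleted cells, with log2 ratios of 0.63 and 0.01. Near Foxc1, Foxf2 was 179.3 kb away and Foxq1 250.2 kb away, with serum ratios that were positive where that of Foxc1 was negative. Gmds, 9.11 kb from Foxc1, had log2 ratios of -0.16 and -0.10. The remaining probes within 300 kb of these genes were under 1.5-fold (Gm11378 at 0.09 and 0.01, and a transcript without a gene name at 0.20 and 0.10) or not well above background (Gm3796 and 4930548F15Rik).

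Foxc2 was the only member past 2-fold after serum, and the genes with the most similar pattern over the 4 channels were searched among 18625 genes. The distance was Euclidean, over log2 signals centred on each gene's mean, and 4 channels are few points for such a likeness. The closest were A3galt2 at a distance of 0.30, with log2 serum ratios of 2.70 and 0.91, Lce1h at 0.32, with 2.29 and 0.47, and Bdkrb1, a bradykinin receptor, at 0.35, with 2.57 and 0.98.

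The FoxO members were next placed beside the genes that act on them. A list of 43 FoxO regulators, which included kinases, phosphatases, phosphoprotein-binding adaptors, ubiquitin ligases, deacetylases and acetyltransferases, was measured in full. In control cells 4 were higher after serum and 2 lower, with a median log2 ratio of 0.04. These counts are close to what the shares of all genes, 6.35% and 5.51%, give for a list of this length. In THOC5-depleted cells 2 were higher and 0 lower, with a median of 0.00, beside 3.07% and 1.34% of all genes. Sgk1, a kinase that phosphorylates FoxO proteins, had signals of 10167 and 46333 in control cells and of 11582 and 41092 in THOC5-depleted cells. Its log2 ratios of 2.19 and 1.83 were thus high in both cultures, unlike those of Foxc2. Trib1, a pseudokinase scaffold for ubiquitin ligases, read 1489 and 16944 against 1217 and 6148, with log2 ratios of 3.51 and 2.34. Trib2, a pseudokinase that restrains FOXO3, went down in control cells, from 345 to 118 (log2 -1.55), and read 255 and 215 without THOC5 (log2 -0.25). Mdm2, a ubiquitin ligase for p53 and FoxO proteins, had log2 ratios of 1.21 and 0.54. The deacetylase Sirt1 had ratios of 0.77 and 0.29. Irs1, which links the insulin receptor to phosphatidylinositol 3-kinase, had ratios of -0.89 and -0.04, and like Foxc1 its unstimulated signal was lower in THOC5-depleted cells (log2 -0.88).

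Of 43 genes known as FoxO targets, 37 were measured in control cells, and 7 of them were higher and 7 lower after serum, with a median log2 ratio of -0.11, beside 6.35% and 5.51% of all genes. In THOC5-depleted cells 5 of 36 were higher and 1 lower, with a median of 0.06, beside 3.07% and 1.34% of all genes. Many of these genes have other activators in serum-stimulated cells, so the list does not read out FoxO activity by itself. Among the lower genes, Klhl24 read 360.0 and 96.9 in control cells and 554 and 359 in THOC5-depleted cells, with log2 ratios of -1.89 and -0.63. Txnip, an inhibitor of thioredoxin that restrains glucose uptake, had signals of 1058 and 303 against 839.9 and 618, with log2 ratios of -1.80 and -0.44. Cdkn2b, the cyclin-dependent kinase inhibitor p15, had ratios of -1.23 and -0.09. The median log2 ratio of the 7 genes that were lower in control cells was -1.19 there and -0.09 without THOC5, and all 7 had the smaller change without THOC5, but these 7 were picked by their control values, so their medians describe them and test nothing.

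Among the higher FoxO targets, Cdkn1a, the cyclin-dependent kinase inhibitor p21, read 252 and 1789 in control cells and 349.9 and 733 in THOC5-depleted cells, with log2 ratios of 2.83 and 1.07. Like Foxc2, its signal was higher without THOC5 in unstimulated cells (log2 0.75) and lower after serum (log2 -1.01). Bcl2l11, the pro-apoptotic protein Bim, had signals of 48.9 and 134 in control cells and of 194 and 176 in THOC5-depleted cells, so that it was already higher by log2 2.19 before serum. Gadd45b, a stress-induced protein, had log2 ratios of 1.26 and 0.32. Klf2 and Klf6, zinc-finger factors, were past 1.5-fold without THOC5, with log2 ratios of 0.29 and 1.85 for Klf2 and 0.97 and 1.15 for Klf6. Btg1, which restrains proliferation, had nearly equal ratios of 0.69 and 0.70, and Cat, the catalase gene, had 0.20 and 0.61. Between the cultures, 7 of the 37 targets measured unstimulated were higher and 0 lower in THOC5-depleted cells, beside 4.99% and 5.19% of all genes. After serum 11 of 36 were higher and 2, Cdkn1a and Gadd45b, lower, beside 6.02% and 5.67% of all genes.

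**Figure D5:**
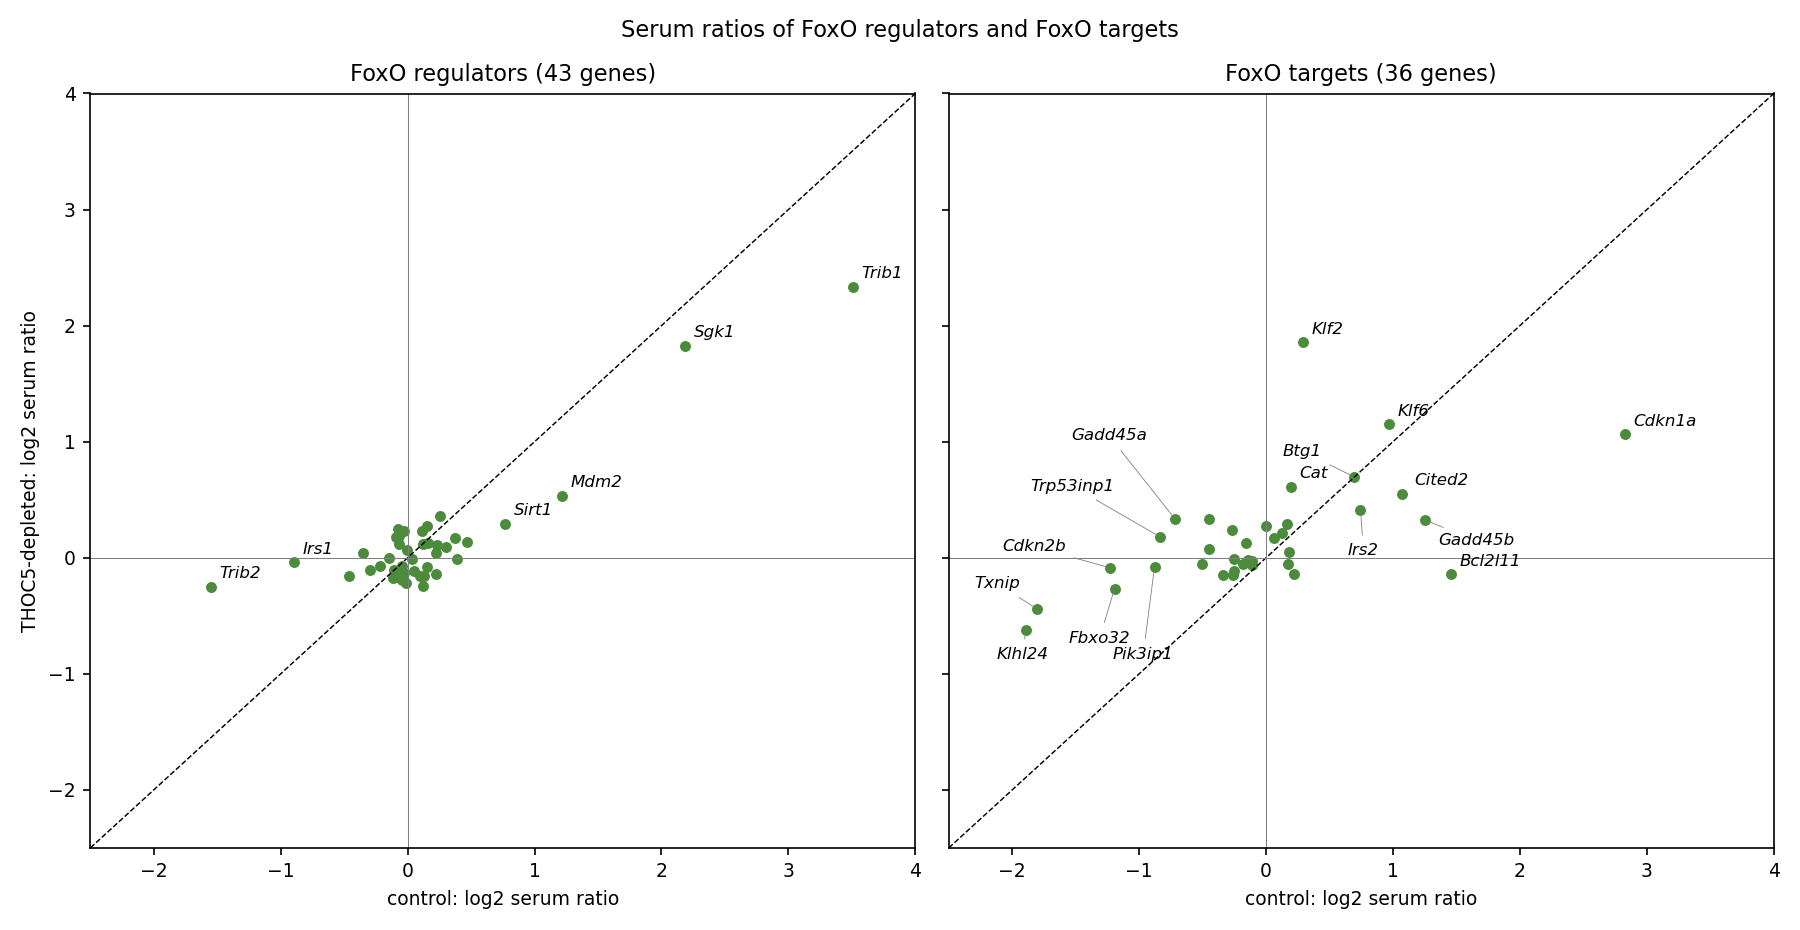
Log2 ratio of 1 h serum over unstimulated signal in control cells (horizontal axis) against THOC5-depleted cells (vertical axis) for 43 FoxO regulators (left panel) and the 36 FoxO targets measured on both arrays (right panel), with the dashed line at equal responses. Genes past 1.5-fold on either array are labelled. Sgk1 lies at 2.19 in control and 1.83 in THOC5-depleted cells. Trib1 moves from 3.51 in control cells to 2.34, and Txnip and Klhl24 move from -1.80 and -1.89 to -0.44 and -0.63.

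The promoters of the serum-responsive members were read from RefSeq (GRCm38.p6), which gave the 250 bases upstream of the start site for 6 of the 9 genes. This build differs from the mm9 of the probes, so the positions are not comparable. Foxc1, Foxf2 and Foxo1 are printed because their signals were past 1.5-fold in control cells. Capitals mark GGGCGG on either strand, the core of an Sp1-type GC box.
Foxc1 (chr13:31806396-31806645, plus strand): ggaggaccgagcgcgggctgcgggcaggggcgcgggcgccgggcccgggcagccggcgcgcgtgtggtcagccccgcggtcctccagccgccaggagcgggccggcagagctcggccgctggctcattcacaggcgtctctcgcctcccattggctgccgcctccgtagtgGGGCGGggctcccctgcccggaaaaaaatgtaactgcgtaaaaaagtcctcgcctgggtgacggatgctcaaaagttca
Foxf2 (chr13:31625566-31625815, plus strand): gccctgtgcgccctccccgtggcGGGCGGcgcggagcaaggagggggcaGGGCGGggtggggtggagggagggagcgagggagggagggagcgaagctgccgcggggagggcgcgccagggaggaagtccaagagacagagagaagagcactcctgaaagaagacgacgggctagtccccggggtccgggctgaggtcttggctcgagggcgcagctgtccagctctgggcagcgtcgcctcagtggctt
Foxo1 (chr3:52268087-52268336, plus strand): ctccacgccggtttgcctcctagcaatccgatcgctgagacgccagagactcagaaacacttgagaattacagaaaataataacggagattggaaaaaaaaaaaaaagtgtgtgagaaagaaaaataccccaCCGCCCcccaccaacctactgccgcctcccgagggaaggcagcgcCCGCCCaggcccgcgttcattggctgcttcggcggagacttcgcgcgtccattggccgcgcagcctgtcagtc
The box occurred 1 time in the Foxc1 window, 74 to 79 bases before the start site, 2 times in Foxf2 and 2 times in Foxo1. It was not particular to these genes, since all 6 genes with a window held it. The undetected Foxd1 had 1 and the undetected Foxo3 had 5, and the windows of Foxp1 had 3, 0 and 1. Of the 32851 windows of this length in the mouse table, 32.7% held it. The windows had a GC content of 70.8% for Foxc1, 71.6% for Foxf2 and 56.0% for Foxo1, where the median of all windows was 52.4%. The box is made of G and C only, and its share among windows of like GC content was not examined. Other motifs searched on both strands were the CArG box of serum response factor (1.47% of all windows), TGACGTCA of CREB (1.55%), TGANTCA of AP-1 (6.75%), the forkhead motif GTAAACA (3.17%) and the E-box CACGTG (6.02%). None of these letters was found in the windows of the 6 genes, which says nothing of sites elsewhere in the genes. Windows for Foxc2, Foxk1 and Foxo4 were not used here.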

How the data were processed

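Total RNA of 2 MEF cultures was measured on 2 dual-color Agilent arrays (1 per condition), and groups were taken from the sample labels. The authors deposited the output of Feature Extraction 10.7.3.1, with probes placed on mm9. Per the file headers, the processed signal is an intensity after background subtraction and linear and LOWESS dye normalization within each array. The log ratio in the authors' deposited files, on a log10 scale, and its error were converted to log2. The authors also deposited a series table, which held the unsigned size of the log10 ratio for 44397 features after a floor and was used only as an alternative.

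From there, spots marked as outliers were left out, the log signals of spots sharing a probe were averaged, and the brightest probe stood for a gene in counts and ranks. Serum ratios were the log2 of Cy5 over Cy3. For differences between the arrays, signals were normalized with Aquantile in limma 3.58.1 (R 4.3.3). Names were matched to RefSeq by accession for 9 of 9 members. Probes printed as many spots varied by a median SD of 0.03 (log2) on each array, beside a median software error of 0.21. A gene counted as measured where the signals compared were well above background, and as higher or lower at 1.5-fold or more.

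The rule for named genes was all members and their probes, Thoc5, the up to 6 genes of each comparison list with the largest serum ratios past 1.5-fold on each array, and the 3 genes most like a member past 2-fold. Genes that a plot labels beyond these, and the genomic neighbours, were chosen after their values were seen. The members and lists were chosen with earlier results of these data known. Alternatives were no dye normalization, normexp (offset 50) followed by loess, the mean over probes, the series table, outlier spots kept, a floor of 50, scaling of the log ratios to one spread, no filter on dim probes, a limit of 2-fold, and for the differences between arrays the 75th percentile or normexp before Aquantile. Counts on ratios scaled to one spread were added after seeing the data. The procedure was tested on simulated data. Chromatin, protein and RT-PCR experiments of the study were not used here.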

Additional observations from a re-analysis of the deposited data

Results flagged for a closer look

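The log2 serum ratio had opposite signs in the 2 cultures for 3 of the 6 measured members, and these differences were not tested, since there was 1 array per condition. Of the 18625 genes measured on both arrays, 31.4% had opposite signs. For Foxo1 it was 0.68 in control and -0.14 in THOC5-depleted cells, a difference of -0.81, and its separate probe gave the same signs. For Foxk1 it was -0.25 in control and 0.17 in THOC5-depleted cells, a difference of 0.42. For Foxp1 it was 0.04 in control and -0.31 in THOC5-depleted cells, a difference of -0.35. The Foxp1 probe at base 1799 gave the same signs (0.25 and -0.17), and the dim probe at base 28 the reverse (-0.12 and 0.17). The Foxk1 and Foxp1 values were under 1.5-fold on each array, and the Foxp1 ratio in control cells and the Foxk1 and Foxo1 ratios in THOC5-depleted cells lay within their software errors.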

How the results depend on the processing

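No paired analysis was possible because each condition had 1 array. Of 102 member values under the alternatives, 52 differed from the reported value and could turn sign (the series table has no sign of its own, scaling keeps it, and the floor and the outlier spots changed no measured member). Of these 52, 2 turned sign, both of them the Foxk1 difference after serum, which was near 0 (log2 -0.0028, 0.0031 with the 75th percentile and 0.00056 with normexp and Aquantile). Another 2 moved beyond the software's error. These were the Foxc2 log2 ratio without THOC5, which was 0.81 when the log ratios were scaled to one spread, and that of Foxp1 without THOC5, which was -0.10 as the mean over probes. With normexp and loess, Foxc1 fell just short of the limit (log2 -0.58), which left 0 members lower in control cells, and Foxc2 passed it without THOC5 (log2 0.60), which made 1 member higher there. With ratios scaled to one spread, a count chosen after seeing the data, 2 members (Foxc2 and Foxf2) were higher without THOC5, as were 5 other forkhead genes, with 1 lower, and 2 FoxO targets were lower. At 2-fold, 1 member was higher and 0 were lower in control cells, 2 other forkhead genes were higher with THOC5 and 0 without it, and 1 FoxO regulator was lower in control cells. Of the FoxO targets, 4 were higher and 4 lower in control cells at 2-fold, and 3 higher and 0 lower without THOC5. No share of all genes is given for the scaled ratios or for 2-fold. These counts therefore have no background beside them. Every value rests on 1 spot on 1 array per condition with a fixed dye order, so the culture and the position on the slide cannot be told apart from the conditions. Dye bias of a probe cannot be told apart from serum in the serum ratios, while a fixed bias cancels in differences between the arrays.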
